A study of Mus musculus with 8 samples.

Results

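Of 10794 day 7 barcodes that passed the limits on genes, mitochondrial RNA and hashtags, 494 carried RNA of the complement genes C1qa, C1qb and C1qc, with at least 1 UMI of 2 or more of these 3 genes. A barcode marks the content of 1 droplet, and a UMI counts 1 captured RNA molecule. The 494 C1q barcodes were chosen by these counts, so their C1q level and their level of any gene against barcodes lacking C1q are given as descriptions, with no test. The whole series held 16404 barcodes that passed. Of the day 7 barcodes, 9953 had none of the 3 genes, 347 had 1, 183 had 2 and 311 had 3. The C1q barcodes were then split by UMIs of Cd3d, Cd3e or Cd3g, which encode the signalling chains of the T cell receptor complex: 438 held at least 1 and 56 held none.

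The cells came from CD8 T cells of 3 donor mice that had been activated and grown together with bone marrow stromal cells (BMSCs) whose mitochondria carried dsRed, a red fluorescent protein. T cells that were dsRed+ after the culture are the MitoPositive arm and those without dsRed the MitoNegative arm, so both arms had been through the same culture. Each arm was injected into B6 mice bearing B16KVP tumors, a B16 melanoma model, and the transferred cells were recovered by flow cytometry from spleen and tumor at day 7. The labels call every sample CD8 T cells. They do not give the donors' genotype, the ages of the mice or the gate of the second sort. The deposited list gives the arms of a donor different recipient mice, so recipient and arm cannot be told apart, whereas spleen and tumor of 1 arm came from the same recipients. One library was made per donor, and each held 4 hashtagged samples. Day 0 cells, sequenced straight from the culture, held 0 C1q UMIs in 6508 barcodes. With 0 of 5610 passing barcodes, a share of up to 0.0535% remained possible.

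C1q is the recognition part of the classical complement pathway, and in tissues its 3 chains are made mostly by macrophages. In the spleen, red pulp macrophages clear aged red blood cells: they take up iron and heme, degrade heme with heme oxygenase 1 (Hmox1) and export iron through ferroportin (Slc40a1). Their development depends on the transcription factor Spi-C (Spic), and they carry the adhesion molecule Vcam1 and secrete Cd5l. They express little Lyz2, the lysozyme gene that is abundant in monocytes and many other macrophages. In the mouse genome (GRCm38) the 3 chains lie side by side on the minus strand of chromosome 4, C1qb at chr4:136880129-136886187, C1qc at chr4:136889804-136893065 and C1qa at chr4:136895917-136898803.

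Which mouse and tissue a droplet belongs to was read from antibody-borne hashtag oligos, and the comparisons of tissues below rest on them. The same 4 oligos were used in each day 7 library, and a barcode was assigned to its top hashtag only where 10 UMIs or more were counted for it and the next tag had no more than 1 UMI for every 3 of these.
Hashtag 1, spleen MitoPositive: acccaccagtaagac
Hashtag 2, spleen MitoNegative: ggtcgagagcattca
Hashtag 3, tumor MitoPositive: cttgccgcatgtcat
Hashtag 4, tumor MitoNegative: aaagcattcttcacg

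C1q barcodes were found in 11 of the 12 day 7 samples. In spleen MitoPositive samples of donors 1, 2 and 3 they were 5.05%, 4.26% and 12% of barcodes (58 of 1148, 98 of 2303 and 6 of 50). In spleen MitoNegative samples they were 4.75%, 7.36% and 4.48% (163 of 3429, 91 of 1237 and 25 of 558). In tumor MitoPositive samples they were 2.91%, 3.02% and 1.04% (5 of 172, 30 of 995 and 7 of 671). Tumor MitoNegative samples were small: donor 1 had 0 of 30, which allows up to 10%, donor 2 had 9.41% (8 of 85, exact 95% interval 4.15% to 17.7%) and donor 3 had 2.59% (3 of 116, 0.536% to 7.37%). The spleen share of 12% in donor 3 also rested on few barcodes (interval 4.53% to 24.3%). The 2 tissues overlapped.

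The mean share was 3.16% ± 3.29 in tumor and 6.32% ± 3.00 in spleen (SD, n = 6 samples each). Tumor was lower in 5 of 6 pairs of the same donor and arm, a mean difference of -3.16 percentage points that did not pass (two-sided exact sign-flip p = 0.125, smallest possible 0.03125). Depth differed between the tissues, with medians of 6292 UMIs in spleen and 15206 in tumor among CD3-containing barcodes without C1q. When each barcode was thinned to 2000 UMIs, which left out 537 shallower spleen and 46 tumor barcodes, the share was 0.659% ± 0.498 in tumor and 2.89% ± 1.62 in spleen. It was then lower in tumor in 6 of 6 pairs (difference -2.24 points, exact sign-flip p = 0.03125, the smallest the design allows). C1q barcodes held a median of 6 C1q UMIs among 6609 in spleen and 5 among 9881 in tumor. Thinning thus removes more C1q UMIs from the deeper tumor barcodes, and the part of depth in this result was not tested. Barcodes with all 3 C1q genes also gave 6 of 6 pairs (difference -2.68 points, exact sign-flip p = 0.03125). The 6 pairs came from only 3 donors, and both arms of a donor shared a library. Each sign-flip test over these pairs treats the arms of a donor as independent.

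**Figure D1:**
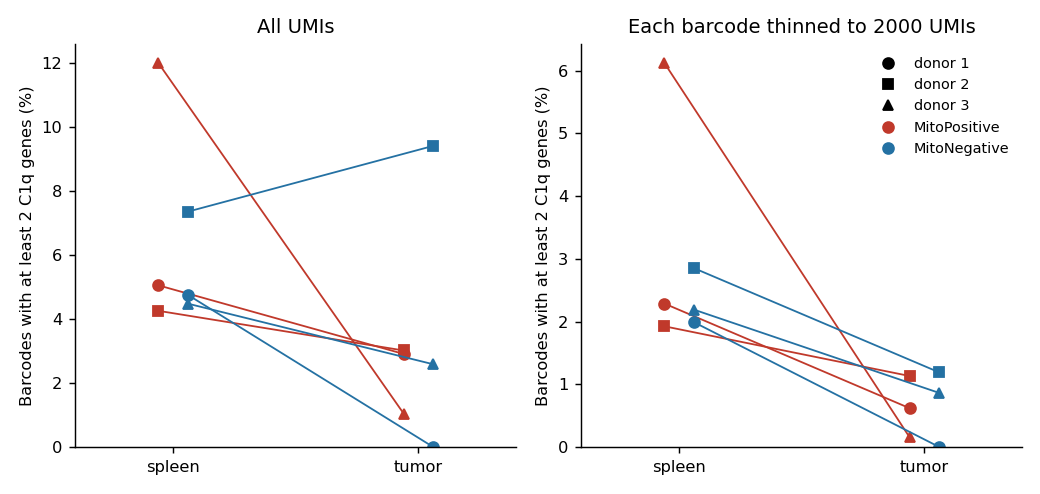
Share of barcodes with at least 2 C1q genes in each day 7 sample, in percent of the sample's barcodes, with all UMIs (left) and with each barcode thinned to 2000 UMIs (right). Each line joins spleen and tumor of 1 donor and arm: 5 of 6 lines fall with all UMIs and 6 of 6 after thinning.

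No difference between the arms beyond the spread between donors was detected in either tissue. In spleen the share was 7.10% ± 4.26 in MitoPositive and 5.53% ± 1.59 in MitoNegative samples (SD, n = 3 each, exact permutation p = 0.7). In tumor it was 2.32% ± 1.11 and 4.00% ± 4.86 (exact permutation p = 0.9). With 3 samples against 3 the smallest p is 0.1, and each difference changed sign when 1 donor was left out: to -1.40 points in spleen without donor 3 and to 0.682 points in tumor without donor 2. With the top hashtag at least 50 times the next, a setting chosen after seeing the data, the spleen share was 9.70% ± 3.04 in MitoPositive and 4.49% ± 0.532 in MitoNegative samples, higher in 3 of 3 donors (difference 5.21 points, exact permutation p = 0.1, the smallest possible). This setting acted unevenly on the arms. It kept 168 of 1148 and 295 of 2303 spleen MitoPositive barcodes in donors 1 and 2, but 3213 of 3429 and 1065 of 1237 MitoNegative ones. In donor 3 it kept 46 of 50 and 547 of 558. The part of this loss in the difference was not tested.

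Red pulp macrophage genes led the RNA that set C1q barcodes apart from the others. Of 12 red pulp genes at 20 CPM (a gene's UMIs per 1000000 UMIs) or more in spleen C1q barcodes, 12 were more than 2-fold above the barcodes without C1q of the same sample, with a median log2 ratio of 5.36. Beyond the C1q genes themselves, the highest ratios in spleen were those of Vcam1 (7.41), the iron exporter Slc40a1 (7.11), the ficolin Fcna (6.72), the iron carrier transferrin Trf (6.47), the eosinophil chemoattractant Ccl24 (6.33) and Hmox1 (6.14). Of 6519 genes at this level, 217 (3.33%) were more than 2-fold higher and 20 (0.307%) more than 2-fold lower, and 99 were higher by that much in each of the 6 samples. This is the contrast used to choose the barcodes, and nothing is read from its size or from the count of red pulp genes. Without C1q the whole red pulp list summed to 18.5 to 39.3 CPM per sample. Its genes thus reached 20 CPM almost only through the C1q barcodes. Around the limit of 2 C1q genes, red pulp RNA was graded: in spleen the median was 1 red pulp UMI in the 305 barcodes with 1 C1q gene, 5 in the 154 with 2 and 12 in the 287 with 3. Slc40a1 had a UMI in 20.3%, 52.6% and 80.8% of these. In tumor it had one in 1 of 42, 16 of 29 and 16 of 24.

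Per spleen sample, Slc40a1 stood at 482, 496 and 261 CPM in MitoPositive C1q barcodes of donors 1 to 3 and at 218, 402 and 2643 CPM in MitoNegative ones. In barcodes without C1q it ranged from 0.872 to 14.3 CPM. The MitoNegative sample of donor 3 was the highest and the groups with and without C1q did not overlap. Vcam1 stood at 353, 429 and 157 CPM in MitoPositive and 132, 258 and 1266 CPM in MitoNegative C1q barcodes, against at most 1.30 CPM without C1q. Spic, the lineage's transcription factor, stood at 83.3, 117 and 26.1 CPM in MitoPositive and 65.8, 60.8 and 618 CPM in MitoNegative C1q barcodes.

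General macrophage genes followed: 15 of 17 at 20 CPM or more were over 2-fold higher in spleen (median log2 ratio 5.04). Among them were Csf1r, the receptor for macrophage colony-stimulating factor, at 48.4 to 462 CPM against 0.145 to 7.15 without C1q, and Adgre1, which encodes F4/80, at 36.6 to 327 against 0 to 0.762 CPM. The mannose receptor Mrc1 ranged from 26.1 to 558 CPM against 0 to 1.52. Receptors for Fc and scavenged ligands were higher for 7 of 7 genes (median 4.55), iron and heme genes for 8 of 9 (3.82), lysosomal genes for 10 of 17 (1.60), lipid handling genes for 7 of 9 (1.61) and MHC class II presentation genes for 4 of 7 (1.56). These lists share genes, such as Hmox1 and Slc40a1 in the red pulp and iron lists. Genes that are low without C1q entered these counts through the C1q barcodes, so nothing is read from the counts.

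The 2 other markers used to label the barcodes differed from each other. Aif1, a calcium-binding protein of macrophages, had a UMI in 49.9% of spleen and 45.3% of tumor C1q barcodes, against 1.16% and 1.54% of CD3-containing barcodes without C1q. Lyz2 had one in only 15 of 441 spleen C1q barcodes (3.40%) and 6 of 53 tumor ones (11.3%), at pooled levels of 21.3 and 75.3 CPM. In spleen samples without C1q, Lyz2 ranged from 2.31 to 601 CPM, so its level did not separate the groups. Clec4f, a marker of liver Kupffer cells, was at 0 in every class, and Itgam, which encodes CD11b, was at 0 in spleen C1q barcodes without CD3. Of the 17 genes of a tumor macrophage list, 5 reached 20 CPM in spleen C1q barcodes, 3 of them over 2-fold higher and 1 lower (median 1.97), and 6 did in tumor, with 2 higher and 1 lower (0.23). Apoe, which carries lipids, was at 306 CPM in spleen and 132 CPM in tumor C1q barcodes, against 6.30 and 9.40 CPM in CD3-containing ones without C1q. Arg1 was at 0 and 25.8 CPM, and Trem2 had 1 UMI in each tissue's C1q barcodes. The list's sum was 402 to 989 CPM in spleen C1q barcodes and 143 to 368 CPM without C1q, and 123 to 739 against 216 to 457 CPM in tumor.

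**Figure D2:**
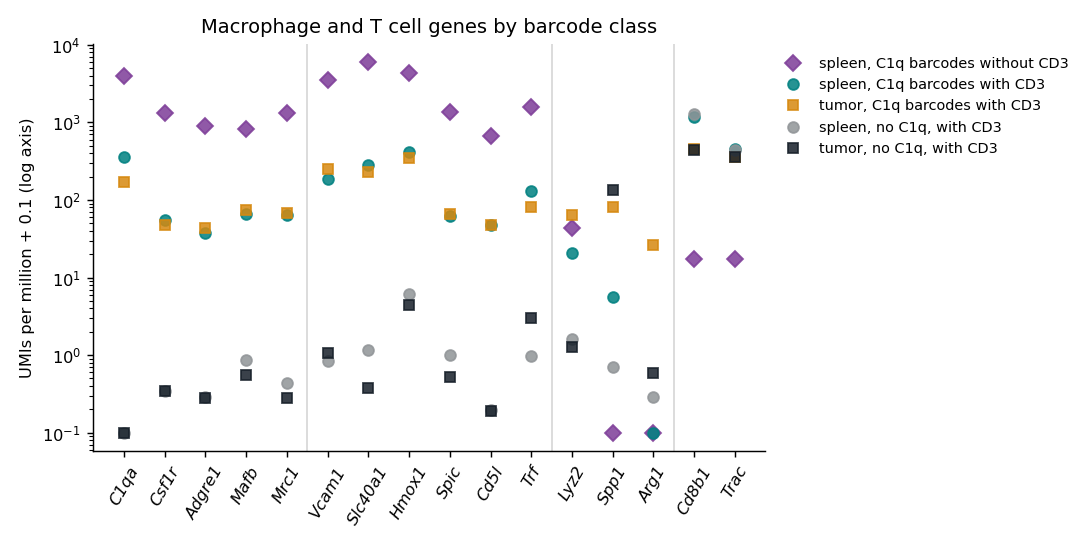
CPM (log axis, with 0.1 added so that 0 can be drawn), from left to right of macrophage genes, red pulp macrophage genes, 3 other myeloid genes and T cell genes, in blocks divided by lines, pooled over samples for each class of barcode. Red pulp genes lie far above the barcodes without C1q in CD3-containing C1q barcodes of both tissues, and highest in the spleen C1q barcodes without CD3, with the tumor sample of 3 C1q barcodes included in the pooled tumor values.

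Tumor C1q barcodes carried red pulp genes too. Of 13 red pulp genes, 8 reached 20 CPM or more there. These 8 were over 2-fold above the tumor barcodes without C1q (median log2 ratio 5.18), and 14 of 15 macrophage genes were (4.15). The whole red pulp list summed to 19.1 to 47.1 CPM per tumor sample without C1q. Its genes thus reached 20 CPM almost only through the C1q barcodes, and nothing is read from these counts. The highest ratios beside C1q were those of Slc40a1 (6.95), Vcam1 (6.95), the sodium-calcium exchanger Slc8a1 (6.30) and Ccl24 (5.69). Over all 6400 genes, 263 (4.11%) were over 2-fold higher and 157 (2.45%) lower. In CD3-containing C1q barcodes of tumor, Slc40a1 was at 30.7, 132 and 200 CPM in MitoPositive samples of donors 1 to 3 and at 246 and 938 CPM in MitoNegative samples of donors 2 and 3. The last of these held only 3 C1q barcodes and was the highest also for Hmox1 (1539 CPM) and Vcam1 (706 CPM). Pooled over tumor, Slc40a1 was at 229, Hmox1 at 349 and Vcam1 at 254 CPM. Without that sample they were at 147, 213 and 202 CPM, against 281, 419 and 184 CPM in spleen. In tumor barcodes with CD3 and without C1q, pooled over all samples, they were at 0.274, 4.29 and 0.974 CPM. Spp1, which tumor macrophages and activated T cells make, was at 80.2 CPM in tumor C1q barcodes with CD3 and at 136 CPM in those without C1q.

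T cell identity genes in C1q barcodes lay within 2-fold of the barcodes without C1q, whereas some effector genes did not. Of 18 T cell identity genes at 20 CPM or more, 0 differed by over 2-fold in spleen or tumor (median log2 ratios -0.09 and -0.13 for all C1q barcodes). Cd8b1, a chain of the CD8 coreceptor, was at 1179 CPM in spleen C1q barcodes with CD3 and 1272 CPM without C1q, and at 458 and 435 CPM in tumor. Trac, the constant region of the T cell receptor alpha chain, was at 452 and 436 CPM in spleen and 363 and 360 CPM in tumor. The summed level of the T cell identity list was 9398 to 14400 CPM in spleen C1q barcodes and 11960 to 14870 CPM without C1q, and 9224 to 9509 against 9379 to 12240 CPM in tumor, lower with C1q in 5 of 6 spleen and 4 of 4 tumor samples. Of the T cell effector list, 1 of 13 genes was over 2-fold higher and 1 lower in spleen, and in tumor 1 of 16 was higher and 5 were lower (median -0.45). The cytotoxic genes Gzmc and Prf1 had median log2 ratios of -4.87 and -4.04 in tumor, lower in 4 of 4 samples. The samples ranged widely, from -7.19 to -0.65 and from -6.23 to -0.38. Pooled over these samples the gap was smaller, 101 against 214 CPM for Gzmc and 39.6 against 80.8 CPM for Prf1. A UMI of Gzmc and Prf1 was found in 7.84% and 27.5% of tumor C1q barcodes with CD3 against 19.7% and 41.1% of those without C1q. The cytokine Il2 was at -4.78, but few barcodes held it (5.88% against 4.31%). Genes of exhausted T cells also kept to their tissue: their summed level in C1q barcodes was 209 to 447 CPM in spleen and 1305 to 1575 CPM in tumor, against 278 to 441 and 1432 to 1712 CPM without C1q. Depth was somewhat higher with C1q in spleen (median 7503 against 6292 UMIs) and lower in tumor (10231 against 15206).

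Receptor usage was compared through Trbv14, the beta chain V segment with most Trbv UMIs in the barcodes without C1q. Its share was lower in C1q barcodes with CD3 in 8 of 11 samples, and the intervals of the classes did not overlap in 3 samples, all of donor 2: 45.2% (19 of 42 UMIs, exact 95% interval 29.9% to 61.3%) against 68.0% (65.2% to 70.7%) in the spleen MitoPositive sample, and 76.6% (62.0% to 87.7%) against 91.8% (89.6% to 93.7%) in the spleen MitoNegative one. The tumor MitoPositive sample of donor 2 had 75% (56.6% to 88.5%) against 91.2% (89.7% to 92.4%). In donor 1 the spleen values were 75% against 78.7% and 95.8% against 96.8%. The share was higher in C1q barcodes in tumor MitoPositive samples of donor 3 (17 of 17 UMIs against 87.9%) and donor 1 (93.3% against 90.5%) and in the tumor MitoNegative sample of donor 3 (6 of 6 UMIs against 96.9%). The other 3 samples had 2 to 12 Trbv UMIs in C1q barcodes. The intervals cover counting error only.

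Spleen C1q barcodes without CD3 were small and rich in macrophage RNA. These 54 of 441 barcodes had a median of 1143 UMIs and 662.5 genes, against 7503 UMIs and 2586 genes in the 387 with CD3. Their C1q UMIs were a median of 16 per barcode against 6, which made up 0.964% against 0.0943% of the class's UMIs. Slc40a1 was at 5917 CPM against 281, Hmox1 at 4365 against 419, Vcam1 at 3525 against 184 and Csf1r at 1304 against 55.3. Cd8b1 and Trac were each at 17.2 CPM, 1 UMI or more in 3.70% of barcodes. Mitochondrially encoded RNA was a median of 4.17% of UMIs, against 2.01% with CD3. Barcodes with few UMIs lack a CD3 UMI more readily, so depth is partly set by this split. The 132 spleen barcodes with neither C1q nor CD3 had medians of 2428 UMIs, 1138.5 genes and 2.96% mitochondrially encoded RNA. Those with CD3 and without C1q had 6292 UMIs, 2237 genes and 2.01%. In tumor, 2 of 53 C1q barcodes lacked CD3. Both held Lyz2, and neither held a UMI of Slc40a1, Vcam1 or Spic. Of the whole red pulp list, 1 of the 2 held 8 UMIs (0.464% of its UMIs) and the other 0.

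A red pulp UMI was present in 54 of 54 spleen C1q barcodes without CD3 and in 370 of 387 with CD3, against 729 of 7979 spleen barcodes without C1q (9.14%). Red pulp genes made up a median of 1.96% of UMIs in the former (0.0890% to 3.73%) and 0.0999% in the latter (0% to 2.38%). The CD3-containing ones held a median of 8 red pulp UMIs per barcode, with quartiles of 4 and 14. Tumor C1q barcodes with CD3 held a median of 7 red pulp and 5 C1q UMIs. Counts of red pulp and C1q UMIs per barcode were thus near those of spleen, in barcodes with more UMIs in all.

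**Figure D3:**
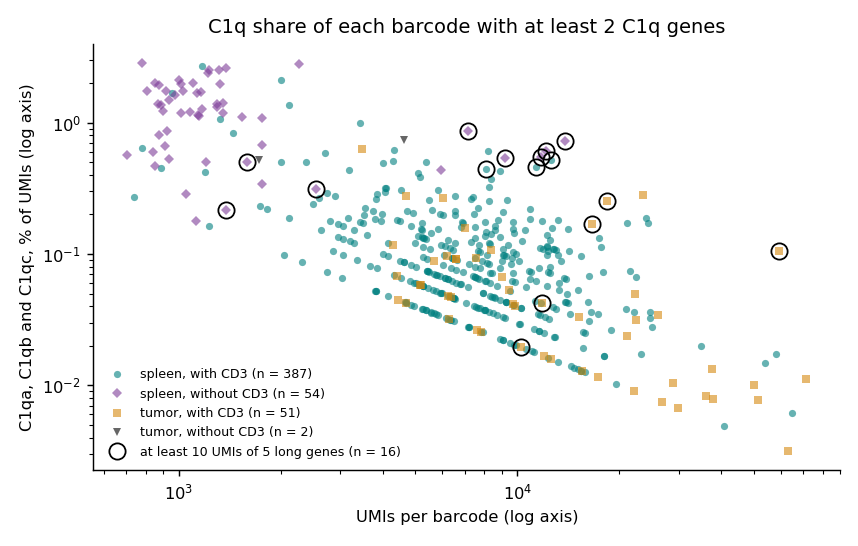
UMIs per barcode (horizontal log axis) against the percent of them from C1qa, C1qb and C1qc (vertical log axis), 1 point per barcode with at least 2 C1q genes, by tissue and CD3. Barcodes without CD3 lie at the upper left with a median of 1143 UMIs in spleen, and 16 ringed barcodes, 8 of them in spleen without CD3 and with more UMIs than most of that class, held at least 10 UMIs of 5 long genes.

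A few barcodes held RNA unlike the rest. The long genes Adgrl3, Dgki, Glis3, Slc8a1 and Ank2 were picked after their values were seen. Of the 494 C1q barcodes, 16 had at least 10 UMIs of them and held 1274 of their 1340 UMIs. In spleen these were 8 of 54 barcodes without CD3 and 3 of 387 with CD3, and in tumor 5 of 51 with CD3. The 8 without CD3 had a median of 8159 UMIs, against 1087.5 in the others of that class. Genes more than 2-fold higher in C1q barcodes were ranked by genomic span. In UMIs per barcode, the 143 longest (92.8 kb or more) stood at a median log2 ratio of -2.48 with CD3 against without, and the 140 shortest (25.2 kb or less) at -1.60. Without the 8 barcodes these medians were 0.19 and -0.89. Since the 8 were chosen for their UMIs of long genes, nothing is read from this change.

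Much of the melanoma and neutrophil RNA sat in single barcodes. One C1q barcode of the spleen MitoPositive sample of donor 2 held 571 of that sample's 578 melanoma-list UMIs. Neutrophil and mast cell RNA lay in 1 barcode of the spleen MitoNegative sample of donor 1 (1729 of 1730 UMIs) and 1 of the spleen MitoPositive sample of donor 2 (1106 of 1110). Summed erythroid and platelet genes reached 1191 CPM in the C1q barcodes of the spleen MitoNegative sample of donor 3 and were 0 to 31.0 CPM in those of the other 5 spleen samples. Summed B and plasma cell genes ranged from 95.5 to 141 CPM in spleen C1q barcodes and from 67.9 to 3141 CPM without C1q. The lowest median ratios in spleen were those of the neutrophil genes S100a8 (-6.53) and S100a9 (-5.24) and of the immunoglobulin genes Iglc1 (-2.71) and Igkc (-2.39). S100a8 and S100a9 were lower in 4 of 6 samples and higher in 2, from -9.88 to 2.74 and from -9.93 to 2.42. Pooled, they stood higher with C1q, at 356 against 197 CPM and 418 against 225 CPM. Among CD3-containing spleen barcodes the neutrophil and mast cell list had a median ratio of 0, over 3 genes.

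The hashtags of tumor C1q barcodes were less pure than those of their neighbours. The second hashtag was a median of 4.41% of the top one in tumor C1q barcodes and 0.357% in tumor CD3-containing barcodes without C1q. Set against all barcodes without C1q, it was higher in 4 of the 4 tumor samples with at least 5 C1q barcodes: 19.4% against 1.39% and 3.69% against 0.482% in MitoPositive samples of donors 1 and 2, 3.73% against 0.0807% in that of donor 3, and 4.79% against 0.565% in the MitoNegative sample of donor 2. In spleen it was higher in 3 of 6 samples. The pooled spleen medians were 1.57% in C1q barcodes and 0.475% in CD3-containing barcodes without C1q. They mix unlike samples, since sample medians of all spleen barcodes without C1q ranged from 0.195% to 3.67%. The second hashtag was a spleen one (hashtag 1 or 2) in 52 of 53 tumor C1q barcodes, and also in 96.4% of tumor CD3-containing barcodes without C1q. It was that of the same arm in 29 of 53 (54.7%), against 333 of 1950 (17.1%) without C1q.

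Ordered by purity, 18 tumor C1q barcodes had a second hashtag above 10% of the top one, 24 had 2 to 10% and 11 had at most 2%. At most 2% was also the band of 1770 of 1950 tumor CD3-containing barcodes without C1q. A red pulp UMI was found in 18 of 18, 23 of 24 and 8 of 11 C1q barcodes of these bands, and a Lyz2 UMI in 1 of 18, 0 of 24 and 5 of 11. Among all tumor barcodes without C1q, a red pulp UMI was found in 33 of 89, 30 of 97 and 412 of 1788 of the same bands. Spleen C1q barcodes numbered 78, 117 and 246 in these bands, with a red pulp UMI in 75, 115 and 234 of them. With the top hashtag at least 50 times the next, an alternative chosen after seeing the data, the share of C1q barcodes was 0.504% ± 0.730 in tumor and 7.09% ± 3.46 in spleen (difference -6.59 points, lower in 6 of 6 pairs, exact sign-flip p = 0.03125). This limit kept only 168 of 1148 and 295 of 2303 barcodes in the spleen MitoPositive samples of donors 1 and 2. No doublet caller was run, and whether spleen RNA or more than 1 cell entered these droplets was not tested.

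**Figure D4:**
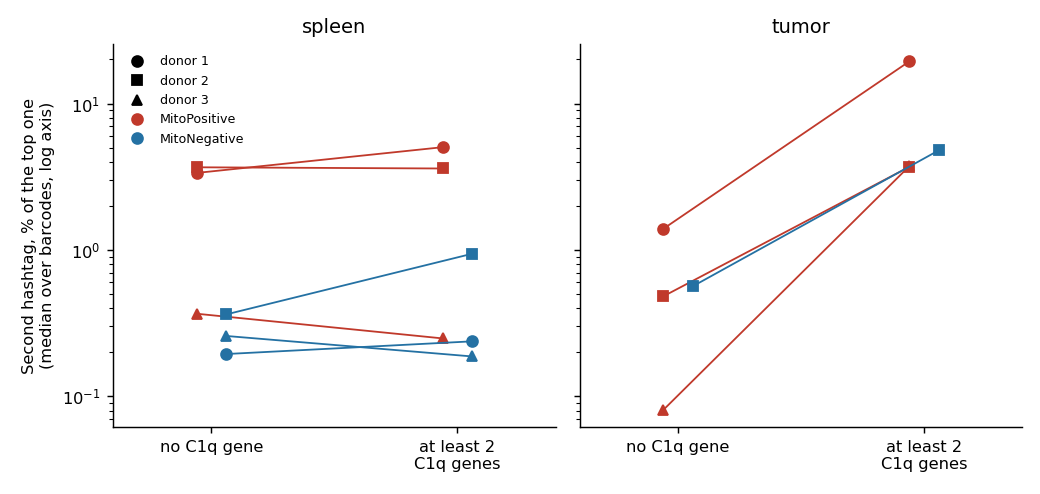
Second hashtag as a percent of the top one (log axis), as the median over barcodes with no C1q gene (all, with or without CD3) and with at least 2 C1q genes, for samples with at least 5 C1q barcodes. Lines join the classes of 1 sample: 4 of 4 rise in tumor, and 3 of 6 rise in spleen.

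The next comparison asked how C1q barcodes of tumor and spleen differed over all genes. T cell genes of the tumor state rose and red pulp genes fell. UMIs were summed per sample over C1q barcodes and tested with edgeR's quasi-likelihood test, donor library and arm in the model, for the 10 samples with at least 5 C1q barcodes (6 spleen and 4 tumor). Tumor MitoNegative samples of donors 1 and 3 were left out. Of 5260 genes, 1034 passed at a Benjamini-Hochberg adjusted p under 0.05 (19.7%), 568 higher in tumor (10.8%) and 466 lower (8.86%). Positive values below are higher in tumor, on the log2 scale with SE.

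Of 13 red pulp genes, 11 passed the filter on low counts: 8 fell, 0 rose, and the median was -1.70 against 0.03 over all genes. Slc40a1 fell by 1.93 ± 0.48 (edgeR adjusted p = 0.00912), Spic by 2.23 ± 0.68 (0.0276), Hmox1 by 1.21 ± 0.31 (0.0107), Trf by 1.70 ± 0.41 (0.00714) and the myeloid receptor Treml4 by 2.83 ± 0.59 (0.00283), each in 3 of 3 donors. Vcam1 at -1.08 ± 0.44 (adjusted p = 0.0903) and Cd5l at -1.17 ± 0.44 (0.0681) did not pass. Of 11 macrophage genes tested beside C1q, 7 fell, among them Csf1r by 1.62 ± 0.46, Adgre1 by 1.53 ± 0.49 and the Fc receptor Fcgr3 by 1.85 ± 0.53. The summed level of the red pulp macrophage list was 2054, 2497 and 1619 CPM in spleen MitoPositive samples of donors 1 to 3 and 1186, 1802 and 7738 CPM in MitoNegative ones. It was 429, 672 and 1189 CPM in tumor MitoPositive samples and 1441 CPM in the tumor MitoNegative sample of donor 2, so the tissues overlapped.

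Composition and depth moved with this result. Barcodes without CD3 were 54 of 441 in spleen and 2 of 53 in tumor, and the tumor barcodes were deeper, so that a like number of red pulp UMIs was a smaller share. With only CD3-containing barcodes 1128 genes passed, and the fall was 1.38 for Slc40a1, 1.53 for Spic and 0.92 for Hmox1, each still past the threshold, whereas Csf1r (-0.75) and Adgre1 (-0.69) no longer passed. The red pulp sum was then 989 to 1984 CPM in spleen and 429 to 1441 CPM in tumor. Without the donor term, 874 genes passed, and Slc40a1 and Spic did not. The part of depth in the result was not tested.

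Of 12 exhaustion genes, 8 were tested: 6 rose in tumor, 1 fell and the median was 2.94. The inhibitory receptors Ctla4, Pdcd1 and Lag3 rose by 4.16 ± 0.31 (edgeR adjusted p = 1.86e-07), 2.68 ± 0.61 (0.00547) and 2.36 ± 0.46 (0.00175). Rgs16, a regulator of G protein signalling, rose by 5.47 ± 0.52, and the receptor-induced transcription factors Nr4a1 and Nr4a2 by 3.20 ± 0.40 and 3.67 ± 0.34. The ectonucleotidase Entpd1, which macrophages also express, fell by 1.42 ± 0.44. Ctla4 stood at 378, 377 and 269 CPM in tumor MitoPositive C1q barcodes of donors 1 to 3 and at 320 CPM in the MitoNegative ones of donor 2, against 10.1 to 29.6 CPM in spleen, with no overlap.

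Effector genes went both ways, with 3 of 11 higher and 5 lower. The chemokines Xcl1 and Ccl4 rose by 4.92 ± 0.71 and 4.24 ± 0.32 and the cytokine Ifng by 3.79 ± 0.78, while granzyme A (Gzma) fell by 2.55 ± 0.32, Cx3cr1 by 2.47 ± 0.48 and Ccl5 by 1.53 ± 0.32. Of the iron and heme list, 5 of 10 fell, and the transferrin receptor Tfrc, by which cells take up iron, rose by 2.38 ± 0.40. Of the dissociation stress list, genes that tissue digestion can raise, 6 of 7 rose: the immediate early genes Fosb (by 5.93 ± 0.71), Junb (by 2.97 ± 0.24), Jun, Jund and Ier2 and the heat shock gene Hsp90aa1 (by 1.17 ± 0.24). Their part in the other differences was not tested. The largest rise in all was Dusp4, a phosphatase of the MAP kinase pathway, at 6.18 ± 0.66, and the largest fall was Slc14a1, a urea transporter, at -4.89 ± 0.92, among genes with 1 direction in 3 of 3 donors. Cd7, a surface receptor of lymphocytes, fell by 3.42 ± 0.71.

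**Figure D5:**
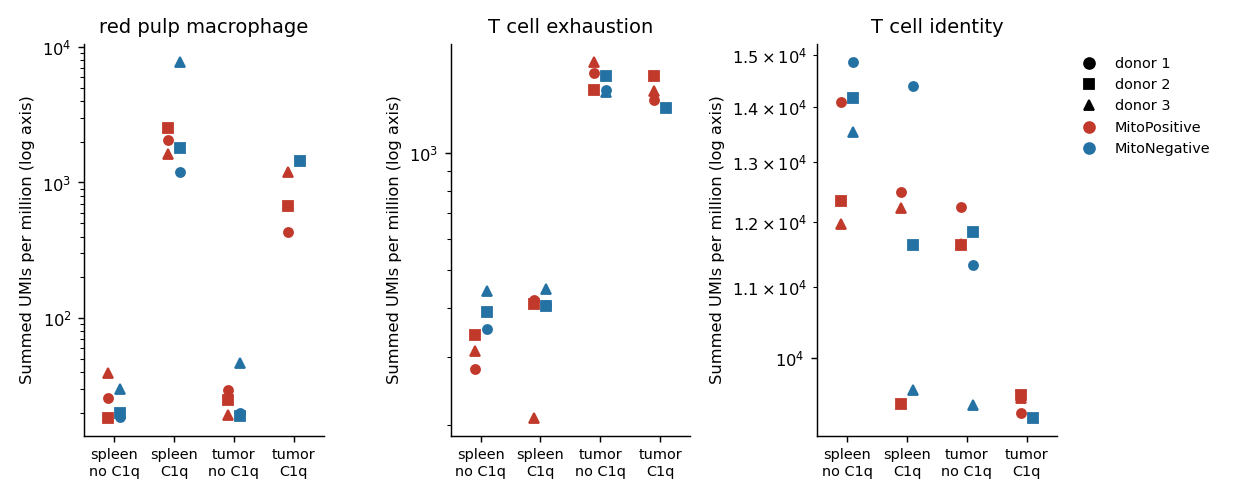
Summed CPM (log axes) of red pulp macrophage, T cell exhaustion and T cell identity genes per sample, in barcodes without C1q and with at least 2 C1q genes, for samples with at least 5 barcodes in the class. The red pulp sum is 1186 to 7738 in spleen and 429 to 1441 in tumor C1q barcodes, against at most 47.1 without C1q, while the exhaustion sum follows the tissue.

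Whether the tissue difference itself was another one in C1q barcodes than in those without C1q was tested as an interaction over 20 sums. Tissue was not used to choose the barcodes, but 1 of the 2 classes was chosen for C1q, so genes that go with C1q enter this test through that choice. Of 8512 genes, 11 passed (0.129%), 1 with a more positive tissue difference in C1q barcodes (0.0117%) and 10 with a more negative one (0.117%), with 575 genes at an unadjusted p under 0.05. Trf (-2.65 ± 0.44) and the ferritin chains Ftl1 (-1.29 ± 0.16) and Fth1 (-0.85 ± 0.16), which store iron, were among the 10. Cd81, a tetraspanin, had the most negative value, -5.72 ± 0.43 (edgeR adjusted p = 3.04e-08). Its level was 57.8 to 231 CPM in spleen C1q barcodes and 10.5 to 49.3 CPM in tumor ones, but 0 to 7.11 CPM in spleen and 10.1 to 155 CPM in tumor without C1q. Of 12 red pulp genes 1 passed (Trf), with a list median of -1.05 against -0.08 over all genes, and of 12 exhaustion genes 0 passed. Samhd1, a nucleotide hydrolase that limits viruses, was the gene with the more positive value, 1.32 ± 0.26.

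The arms could be compared within spleen only, where the arm values rest on MitoPositive against MitoNegative C1q barcodes of donors 1 and 2. The MitoPositive sample of donor 3, with 6 barcodes, was left out. The MitoNegative sample of donor 3 was in the fit but had no partner, so the donor term absorbed it. The fit of 6 sums, which also held the tumor MitoPositive sample of donor 2, kept 1 residual degree of freedom. It called 76 of 8392 genes (0.906%), 50 higher (0.596%) and 26 lower (0.31%) in MitoPositive. The count was unstable: 0 without the donor term (194 at an unadjusted p under 0.05), 9 with DESeq2, 5 with samples of at least 5 C1q barcodes, 6 without donor 3 and 6 without the 16 long-gene barcodes.

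Gzma, Ccl5 and Cd7 were called in spleen also with DESeq2, without donor 3 and without the long-gene barcodes, and Gzma also with samples of at least 5 C1q barcodes, where Ccl5 and Cd7 did not pass (edgeR adjusted p = 0.136 and 0.199). Gzma, a granzyme, rose by 1.97 ± 0.18 (edgeR adjusted p = 3.05e-09) and the chemokine Ccl5 by 1.13 ± 0.11 (3.64e-09), and Cd7 fell by 2.23 ± 0.27 (6.43e-07). Without the donor term none of the 3 passed, with values of 2.08, 1.34 and -2.00. Gzma stood at 1487, 3175 and 2220 CPM in MitoPositive C1q barcodes of donors 1 to 3 and at 331, 854 and 447 CPM in MitoNegative ones, with no overlap. In barcodes without C1q of the same samples it was 1281, 970 and 2796 against 204, 287 and 380 CPM, so the C1q barcodes showed the order of their neighbours. Cd7 stood at 65.3, 40.1 and 183 against 292, 181 and 126 CPM in C1q barcodes, which overlapped in donor 3, and at 89.5, 99.5 and 136 against 347, 317 and 263 CPM without C1q.

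Among macrophage genes 2 of 16 rose, Mertk (1.74 ± 0.36), a receptor for dying cells, and Lyz2 (1.78 ± 0.45), and among red pulp genes 1 of 12, Vcam1 (1.01 ± 0.24). Mertk and Vcam1 changed sign without the donor term, to -1.42 and -0.38. The MitoNegative sample of donor 3 enters the arm value only then. With the donor term, and so from donors 1 and 2, the red pulp list had 12 of 12 values above 0. Its median was 0.57, against 0.00 over all genes. C1q barcodes without CD3, which were richer in red pulp RNA, were 7 of 58 and 16 of 98 in these MitoPositive samples. In the MitoNegative samples of donors 1 and 2 they were 16 of 163 and 8 of 91. The part of this composition in the list's values was not tested. Interferon response genes fell for 4 of 18 (median -0.76; Ifit1 -1.73, Ifit3 -1.65, Isg15 -1.30 and Ifi27l2a -0.88) and S and G2/M phase genes for 3 of 16 (median -0.66; Mcm5 -2.09, Tyms -1.50 and Mcm6 -1.06). None of these 7 genes, nor Mertk, Lyz2 or Vcam1, passed without the donor term, without donor 3, without the long-gene barcodes or with samples of at least 5 C1q barcodes. Of those given an adjusted p by DESeq2, Ifi27l2a passed and Isg15, Mcm6, Mertk and Vcam1 did not. The melanoma genes Dct, Tyrp1, Mlana and Pmel, at 9.37, 7.94, 7.25 and 6.41, came from the single barcode above. Without the barcodes rich in melanoma or neutrophil RNA, 95 genes passed.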

How the data were processed

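Single-cell 3' RNA libraries (Chromium Next GEM v3.1) held pooled T cells of 3 donors at day 7, 1 library per donor, and 1 day 0 library. Per the file headers, the authors deposited raw UMI counts per gene or hashtag and barcode, made with Cell Ranger 7.0.0. Seurat 4.0.5 and mm10 (GRCm38) are also named in the submitters' processing notes. The day 7 libraries held 5221, 4896 and 1467 barcodes with medians of 6858, 5900.5 and 8814 UMIs, and pairs of libraries shared 1 to 9 barcode sequences.

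Barcodes needed at least 500 genes, less than 15% mitochondrially encoded UMIs, and a top hashtag of at least 10 UMIs and 3 times the next. No doublet caller was run. Hashtags were mapped to tissue, arm and donor by the deposited list. The replicate is the hashtagged sample, and donors pair the samples, because spleen and tumor of 1 arm share recipients and all samples of a donor share a library. Spleen C1q sums of the arms deviated together no more within donors (correlations of -0.05, -0.11 and -0.08 over 6416 genes) than between them (-0.05 to 0.09). Nothing says that donors were handled on separate days, and p-values measure the spread between these samples.

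Shares were compared by exact sign-flip tests over pairs or exact permutation tests, with exact (Clopper-Pearson) 95% intervals; the upper limit for 0 barcodes is 3 over the total. Ratios to barcodes without C1q used log2(CPM + 1) within a sample, for genes at 20 CPM or more. Sums were tested with edgeR 4.0.16 in R 4.3.3 (filterByExpr, TMM, quasi-likelihood, Benjamini-Hochberg, 0.05), with DESeq2 1.42.0 as an alternative. Samples needed 10 C1q barcodes. At that minimum the tissue and interaction fits could not be made, and the alternative of 5, listed with it, is reported. On simulated counts the fits recovered 30%, 22% and 25% of genes changed 2-fold and 73%, 88% and 71% of genes changed 4-fold for arm (7626 genes), tissue (4930) and interaction (7967), with 7, 7 and 8 unchanged genes called.

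The barcodes and gene lists were chosen with earlier results of these data known. Named genes are the list genes past the threshold, the 10 largest changes in each direction with 1 sign in every donor, and, against barcodes without C1q, the highest and lowest median ratios; the list genes given as not passing were added. Gene positions and spans are from GENCODE vM21. The alternatives are in the closing section.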

Additional observations from a re-analysis of the deposited data

Results flagged for a closer look

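The tissue difference in C1q barcodes differed from that in barcodes without C1q for 11 genes by edgeR's interaction test (values on the log2 scale, each with 1 sign in 3 of 3 donors). The more negative ones were Cd81 (-5.72), the motor protein Myo10 (-4.42), Cystm1 (-4.41), the semaphorin Sema6d (-4.01), Trf (-2.65), the NK cell receptor Klre1 (-1.88), the transcription factor Irf8 (-1.77), Rgs2 (-1.61), Ftl1 (-1.29) and Fth1 (-0.85), and the more positive one was Samhd1 (1.32). Irf8 ranged from 31.1 to 156 CPM in spleen and 212 to 316 CPM in tumor C1q barcodes, against 11.0 to 17.9 and 168 to 310 CPM without C1q. Samhd1 ranged from 316 to 993 CPM in spleen and 73.8 to 478 CPM in tumor C1q barcodes, against 307 to 492 and 51.9 to 96.1 CPM without C1q. These ranges include the tumor MitoNegative sample of donor 3, with 3 C1q barcodes, which the fit left out.

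C1q RNA was also frequent in barcodes that the main comparisons left out. Of 456 day 7 barcodes without a clear hashtag, 85 held at least 2 C1q genes (18.6%), against 4.58% of those that passed. Of 306 with too few genes or too much mitochondrial RNA, 123 did (40.2%). Of the 123, 120 had too few genes, 12 too much mitochondrial RNA, and 18 a CD3 UMI.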

How the results depend on the processing

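The lower share of C1q barcodes in tumor kept its direction under each setting run. It passed with thinning (-2.24 points), with all 3 C1q genes (-2.68), and, chosen after seeing the data, with a hashtag ratio of 50 (-6.59) or thinning with a ratio of 10 (-2.19). With no hashtag ratio, which takes in barcodes without a clear hashtag, it was -2.35 points (exact sign-flip p = 0.375). A minimum of 200 genes gave -4.06 points (exact sign-flip p = 0.0625). Leaving out a donor gave -4.94 to -1.52 points for tissue, -3.97 to 0.682 for arms in tumor and -1.40 to 3.91 for arms in spleen. For the arms in spleen a ratio of 50 gave 5.21 (p = 0.1, exact permutation test), but it removed most MitoPositive barcodes of donors 1 and 2. The replicate block changed no share call: p = 0.119 without it for tissue, and 0.75 with it for the arms in tumor and in spleen (exact tests).

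The arm count in spleen C1q barcodes was 76, and 9 with DESeq2, 37 with CD3-containing barcodes only, 138 with all 3 C1q genes, 5 with samples of at least 5 C1q barcodes, 6 without donor 3 and 0 with no replicate block. Added after seeing the data were a hashtag ratio of 50, which gave 1, and leaving out long-gene barcodes, which gave 6. With no replicate block the sign turned for Adgrl3 (-1.44), Mertk (-1.42), Gab2 (-0.69), Glis3 (-0.50), Vcam1 (-0.38), Mcc (-0.20), Snx24 (-0.20) and Pid1 (-0.18). It also turned for Mertk (-1.37) and Vcam1 (-0.41) at a ratio of 50, and for Mertk (-0.13) without long-gene barcodes. The tissue count was 1034, 874 with no replicate block, and 543 (without donor 1) to 830 (without donor 3) when a donor was left out. The interaction count was 11, and 17 with DESeq2, 109 without the filter on low counts, 4 with no replicate block and 3 (without donor 1) to 19 (without donor 3). The causes were not tested, and leaving out a donor also left fewer samples.

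Tissue and interaction fits without donor 2, with all 3 C1q genes, with hashtag ratios of 10 or 50 or with C1q barcodes lacking CD3, arm fits without donor 1 or 2, and any arm fit in tumor were not run, since too few samples had enough C1q barcodes. The share of CD3-lacking C1q barcodes was not compared between tissues: 1 pair had at least 10 C1q barcodes in both.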
